A study of Mus musculus with 9 samples.

Results

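Of the 15166 SOX6 peaks called on chromosomes 1 to 19 in oligodendrocyte progenitor cells (OPCs) of the EpiSC5 line, 13696 overlapped by at least 1 bp a SOX6 peak of 129O1 OPCs. Of these shared sites, 1959 (14.3%) overlapped no H3K27ac peak in any of 4 lists, and those 1959 sites are described here. A further 5516 shared sites lay in 1 to 3 of the H3K27ac lists and 6221 (45.4%) lay in all 4. The presence and position of peaks in the OPC SOX6 and H3K27ac lists chose the sites, so fold enrichment, width and distance to acetylation are given as descriptions without a test.

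The study mapped SOX6 and H3K27ac by chromatin immunoprecipitation and sequencing (ChIP-seq) in mouse OPCs and in the oligodendrocytes (OLs) they form, and its title concerns the timing of oligodendrocyte maturation. The OLs were intermediate, O1-positive cells of both lines, with H3K27ac mapped in 129O1 and EpiSC5 and SOX6 in EpiSC5 alone. The OPCs of both lines, with H3K27ac and SOX6 mapped in each, had been purified by sorting for CD140a and NG2 and grown with bFGF and PDGFA. Both are epiblast stem cell lines, derived from the mouse strains 129SvEv and 129S1/SvImJ, so all cells are products of stem cell differentiation in culture, without added SHH, and not cells taken from brain. No group carried a genetic change or a drug per the labels, and the 2 lines were the replicates. ChIP used 9 µg of antibody per sample for H3K27ac and 15 µg for SOX6. The lists hold no read counts, and how deeply each library was sequenced is therefore unknown.

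SOX6 belongs to the SoxD group of transcription factors, which bind DNA through an HMG box, have no transactivation domain of their own and act with partner proteins as activators or repressors. In the oligodendrocyte lineage SOX5 and SOX6 are known to restrain differentiation and to oppose SoxE factors such as SOX10. Acetylation of lysine 27 of histone H3 marks active enhancers and promoters, so a SOX6 site outside all H3K27ac peaks lies in chromatin without a called mark of activity in either cell state.

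The lists differed in length and in marker coverage as follows. On chromosomes 1 to 19 there were 3858 SOX6 peaks in OL, against 22320 (129O1) and 15166 (EpiSC5) in OPC, and 33058 and 30443 H3K27ac peaks in OL, against 29975 and 26967 in OPC, in the same order of lines. H3K27ac over 8 oligodendrocyte marker genes (scaled covered length within 10 kb of the body) summed to 84.2 and 125 kb in the OL lists, against 24.7 and 21.9 kb in the OPC lists, where 2 of the 8 were at 0 in each list. The sum over 8 OPC markers was 74.6 and 75 kb in the OL lists, against 110 and 112 kb in the OPC lists, with none at 0. Of these, Gpr17 (12.7 and 12 kb in OL, 10.6 and 6.94 kb in OPC) was higher in OL in both lines. So was Sox10 (8.72 and 9.61 kb, 8.04 and 9.35 kb), while the other OPC markers were lower. For 6 astrocyte markers it was 39.3 and 20.8 kb in the OL lists, against 28.5 and 30 kb in the OPC lists, with none at 0. For 6 neuron markers it was 15 and 10.6 kb in the OL lists, against 13.7 and 14.1 kb in the OPC lists. Tubb3 (4.53 to 7.99 kb), Rbfox3 (1.63 to 6.67 kb) and Syt1 (1.23 to 2.15 kb) were covered in every list, Snap25 and Neurod1 in some and Stmn2 in none. For 6 microglia markers it was 6.18 and 4.39 kb in the OL lists, against 4.37 and 4.95 kb in the OPC lists. Cx3cr1, Trem2 and Itgam were at 0 in every list, while Aif1 (2.28 to 3.87 kb) and P2ry12 (0.366 to 1.08 kb) were covered in every list. Csf1r was at 2.46 and 1.75 kb in the OL lists and at 0 in the OPC lists. For 6 pluripotency markers it was 14.4 and 15 kb in the OL lists, against 19.3 and 19.4 kb in the OPC lists, of which Sox2, a gene neural cells also use, held 13.1 to 17.6 kb. The part of other cell types in the results was not tested. In a peak list from a whole culture, fewer cells with SOX6 or H3K27ac at a site and less of it per cell cannot be told apart.

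Sequence was at hand where a site's summit fell in a RefSeq promoter window (250 bases before to 50 after an annotated start, GRCm38.p6, the assembly mm10 names), which held for 21 windows. The stretches below are shown to place the SOX core beside SOX6 summits. They run up to 40 bases each side of the EpiSC5 summit, upstream of the start and 5′ to 3′ on the strand of the gene, and capitals mark ACAAT or its complement ATTGT, the core to which SOX HMG boxes are known to bind.
Gm31135 (lncRNA; strongest site of the 21), chr8:8484773-8484853, minus strand: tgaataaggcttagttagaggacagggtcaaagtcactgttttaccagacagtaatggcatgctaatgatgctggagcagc
Map2k6 (a MAP kinase kinase), chr11:110479125-110479205, plus strand: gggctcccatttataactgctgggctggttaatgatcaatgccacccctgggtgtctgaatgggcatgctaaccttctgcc
BC048562, chr9:108436386-108436466, plus strand: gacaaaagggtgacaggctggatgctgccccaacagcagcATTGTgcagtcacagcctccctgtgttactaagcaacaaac
Ptger2 (a prostaglandin E receptor), chr14:44987987-44988067, plus strand: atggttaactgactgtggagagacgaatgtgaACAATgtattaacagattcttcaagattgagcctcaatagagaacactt
Gm41109 (lncRNA), chr14:24429999-24430079, minus strand: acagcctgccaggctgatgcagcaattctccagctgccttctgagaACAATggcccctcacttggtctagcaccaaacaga
Kifc5b (a kinesin; the 1 site of the 21 with a SOX6 peak in OL), chr17:26916920-26917000, plus strand: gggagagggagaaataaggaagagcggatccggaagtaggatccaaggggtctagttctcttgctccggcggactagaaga

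The authors' fold enrichment, the ratio of ChIP signal over background at a peak, was 18.8 in EpiSC5 and 19.1 in 129O1 at the Gm31135 site and 12.8 and 16.9 at the Map2k6 site, in the same order of lines. It was lower at the BC048562 site, with 4.98 in EpiSC5 and 4.96 in 129O1. The Ptger2 site had 5.82 and 6.18, and the Gm41109 site 6.55 and 6.44. The Kifc5b site had 2.3 in EpiSC5 and 4.76 in 129O1. The ACAAT core lay 2 bases from the summit at BC048562, 6 at Ptger2 and 8 at Gm41109. These were the closest of the windows with a core. At Map2k6 the nearest core lay 70 bases from the summit, and in the other windows with one 18 (Ap2s1) to 213 bases (Gm10610). The windows of Gm31135 and Kifc5b held none. ACAAT on either strand was present in 12 of the 21 windows (57.1%, exact binomial interval 34 to 78.2), against 326 of 1007 windows (32.4%) holding the summit of a site in all 4 H3K27ac lists and 30.5% of all 31365 windows. The longer AACAAT, which contains it, was in 23.8% of the 21, against 11.2% of the 1007 and 10.6% of all windows. The E-box CANNTG, the type of site bound by bHLH factors such as OLIG2, was in 90.5% of the 21, against 59.9% and 72.2%, and its form CAGCTG in 47.6%, against 17.2% and 16.3%. TTCCGG, an ETS core, ran the other way against the acetylated sites, with 14.3% of the 21, 49.9% of the 1007 and 15.1% of all windows. The AP-1 letters TGANTCA were in none of the 21, in 4.17% of the 1007 and in 7.85% of all windows. The 21 windows had a median GC content of 49.7%, against 61.3% for the 1007 and 53% for all. These 21 are a small and unrepresentative part of the 1959, since they are the sites at starts, and a match of letters is not a bound site. With the higher-scoring 50% of each OPC SOX6 list, 2 of 6 windows (33.3%) held ACAAT.

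The sites outside acetylation were bound about as strongly in EpiSC5 as the acetylated ones but made narrower peaks. Median fold enrichment in EpiSC5 was 5.21 at the 1959 sites (lowest 1.53, highest 32.7), against 5.17 at sites in all 4 lists (1.47 to 43.4). In 129O1 the medians were 5.96 (2.08 to 39.6), against 6.54 (1.75 to 53.8). In EpiSC5, 50.1% of the sites outside acetylation and 49.7% of those in all 4 lists were above the median of all shared sites, while in 129O1 it was 44.2%, against 52.6%. The range of the middle was tighter: the tenth and ninetieth percentiles of fold in EpiSC5 were 3.49 and 9.26 outside acetylation and 2.97 and 11.5 in all 4 lists. Median width was 272 bp in EpiSC5 and 295 bp in 129O1, against 358 and 424 bp for sites in all 4 lists. The median -log10 q, which rises with both fold and depth of the library, was 17.6 and 22.7, against 25.8 and 39.3.

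**Figure D1:**
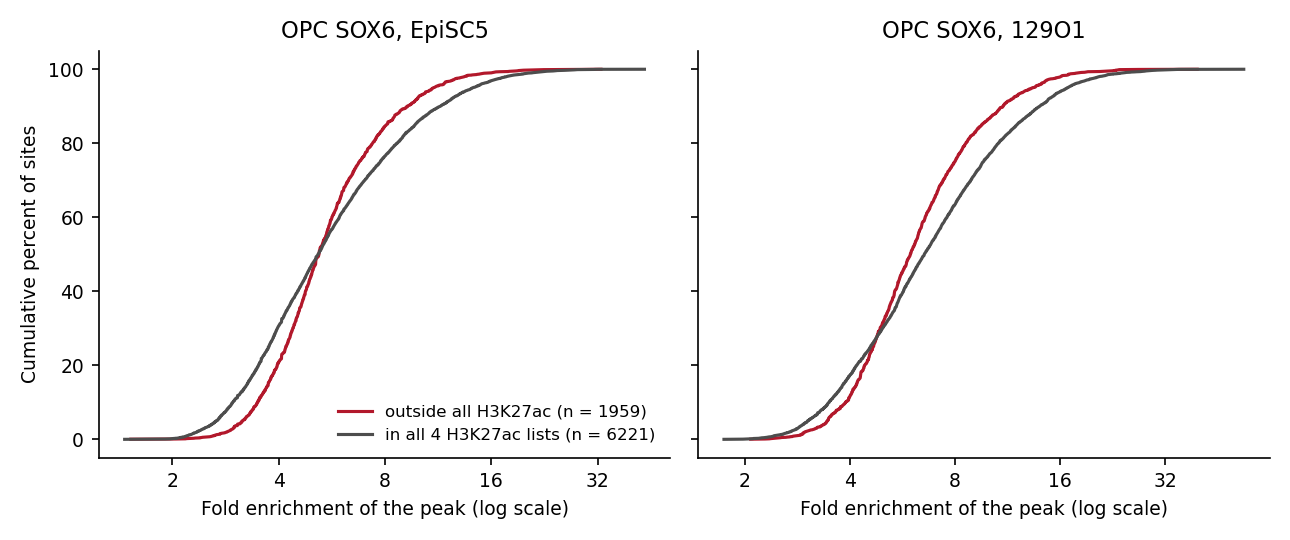
Cumulative percent of sites (y axis) by the authors' fold enrichment of the SOX6 peak (x axis, log scale) in EpiSC5 OPCs (left) and 129O1 OPCs (right), for sites outside all H3K27ac (red, n = 1959) and in all 4 H3K27ac lists (grey, n = 6221). In EpiSC5 the curves cross near their medians of 5.21 and 5.17, and in 129O1 the red curve lies to the left above the middle, with medians of 5.96 and 6.54.

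Few of the strongest SOX6 sites were outside acetylation. With sites ordered by the worse of their fold ranks in the 2 lines, 6 of the top 100 (6%), 25 of the top 500 (5%) and 74 of the top 1000 (7.4%) were outside all H3K27ac, against 73, 334 and 611 in all 4 lists. As the rule takes overlapping peaks, summits of the 2 lines are close by construction, and they were a median of 21 bp apart in both classes, and 86.1% were within 50 bp of each other outside acetylation, against 82% in all 4 lists. Fold in the lines was correlated across sites, with a Spearman rank correlation of 0.716 outside acetylation and 0.873 in all 4 lists, given as a description since the points of a line share 1 library. Of EpiSC5 SOX6 peaks outside all H3K27ac, 1959 of 2529 (77.5%) overlapped a 129O1 peak, against 6221 of 6472 (96.1%) of those in all 4 lists. In 129O1, 1943 of 4186 (46.4%) overlapped an EpiSC5 peak, against 6255 of 9049 (69.1%). The share of shared sites that lay outside acetylation ran from 11.3% on chromosome 7 to 16.9% on chromosome 3.

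**Figure D2:**
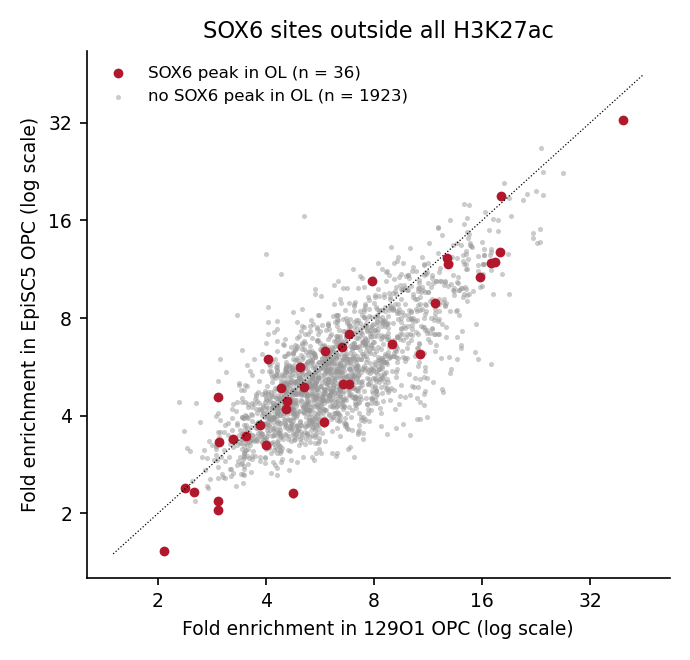
Fold enrichment of each of the 1959 sites outside all H3K27ac in 129O1 OPCs (x axis, log scale) and EpiSC5 OPCs (y axis, log scale), with the line of equal values dotted. The 36 sites that had a SOX6 peak in OL (red) are spread over the whole range of fold, from the weakest sites to the strongest one at 39.6 in 129O1 and 32.7 in EpiSC5.

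Of the 12 strongest sites by that order, 8 lay outside every protein-coding gene body and 4 inside one. Among all sites outside acetylation, 46.8% had their summit in such a body. Whether the 12 differ from that share was not tested. The strongest was chr13:46173067-46173610, with fold 32.7 in EpiSC5 and 39.6 in 129O1, and its summit lay 100419 bp from Stmnd1, a stathmin-domain gene. Its nearest H3K27ac peak was 94612 bp away, and it kept a SOX6 peak in OL with fold 5.19. Within Ptprd, a receptor-type tyrosine phosphatase of cell adhesion, chr4:77819303-77819678 had fold 22.4 in EpiSC5 and 26.9 in 129O1 and lay 456730 bp from H3K27ac. Within Tgfbr3, the co-receptor betaglycan, chr5:107148069-107148647 had fold 26.8 and 23.4 in the same order and lay 18664 bp from H3K27ac. Both were without a SOX6 peak in OL. Within Tenm3, a teneurin adhesion receptor, chr8:49282372-49282759 had fold 19.4 and 21.3, and within Rbms1, an RNA-binding protein gene, chr2:60788112-60788578 had fold 18.5 and 20.8. The strong sites outside genes also included chr5:97166474-97166873, 54912 bp from Paqr3, with fold 22.6 in EpiSC5 and 23.6 in 129O1. The site near Cd109 (chr9:78880142-78880796, 164239 bp away) had 19.7 and 22.7. The site near Gm44812 (chr7:70660193-70660632, 75433 bp away) had 19.1 and 23.6, and the site near Strit1 (chr3:63570661-63571088, 86964 bp away) had 16.5 and 19.3. The Gm31135 site printed above is 132422 bp from Efnb2, the gene of an ephrin ligand. A site 600332 bp from Plxna2, a semaphorin receptor gene (chr1:194019157-194019724), had fold 20.8 and 18.4. The last of the 12, 57705 bp from Chd6, a chromatin remodeller gene (chr2:161166562-161167074), had fold 19 in EpiSC5 and 18 in 129O1, with a SOX6 peak in OL of fold 7.41. It lay 25 bp from an H3K27ac peak of EpiSC5 OL and 10243 bp or more from the peaks of the other lists. These 12 had been chosen by fold, so their height is a description.

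Most sites lay well away from acetylation and a small set lay against its edge. The median distance to the nearest H3K27ac peak of any list was 15660 bp, with 202 sites (10.3%) under 1 kb, 535 (27.3%) at 1 to 10 kb, 1072 (54.7%) at 10 to 100 kb and 150 (7.66%) over 100 kb away. Of the 202 under 1 kb, 147 were under 200 bp from the peak and 55 were spread over the remaining 200 to 1000 bp. Sites at the edge were somewhat weaker: median fold in EpiSC5 was 4.71 under 1 kb, 4.94 at 1 to 10 kb, 5.35 at 10 to 100 kb and 5.53 above that. Only 1 site of the 1959 had H3K27ac peaks of the same list within 1 kb on both sides. The median distance was 31197 bp to OL H3K27ac of 129O1 and 33264 bp to that of EpiSC5, against 27360 and 30775 bp to OPC H3K27ac.

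**Figure D3:**
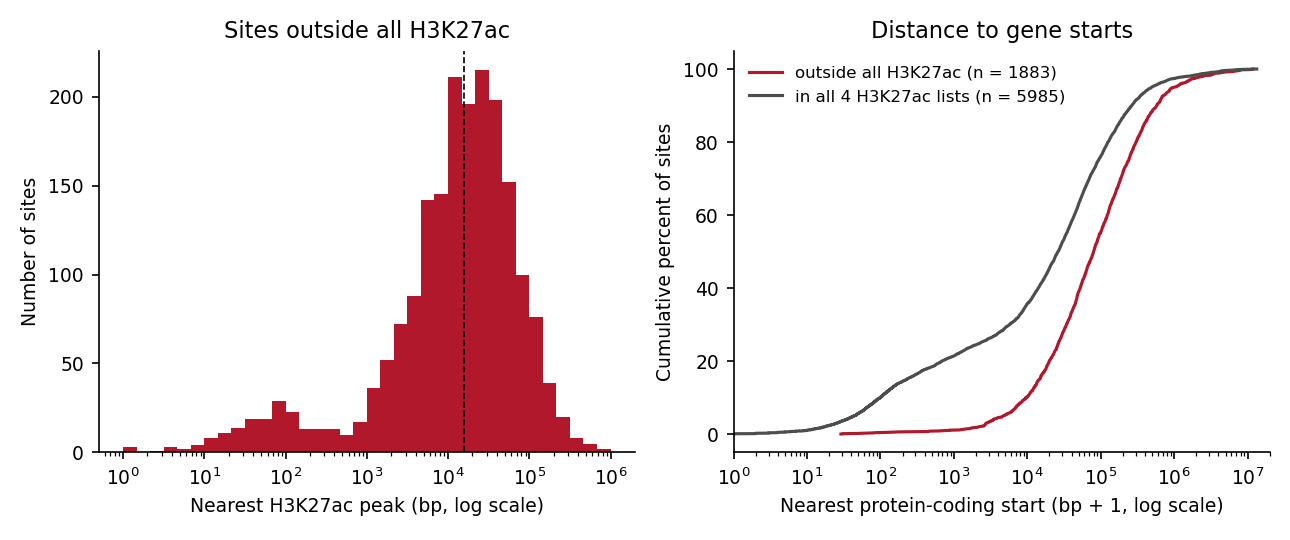
Left, number of the 1959 sites (y axis) by distance from the SOX6 peak to the nearest H3K27ac peak of any list (x axis, bp, log scale), with the median of 15660 bp dashed; a small second hump stands at about 100 bp. Right, cumulative percent of sites (y axis) by distance from the summit to the nearest protein-coding start (x axis, bp plus 1, log scale); 1.12% of sites outside all H3K27ac (red) and 21.4% of those in all 4 lists (grey) are within 1 kb.

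The sites farthest from acetylation were of ordinary strength. The farthest, chr3:47218649-47218907, was 770419 bp from any H3K27ac peak, 770799 bp from Pabpc4l, and had fold 5.77 in EpiSC5 and 5.88 in 129O1. A site in Naaladl2 (chr3:24355048-24355328) was 769975 bp away, with fold 5.25 and 6.25. One in Hs3st4, a heparan sulfate sulfotransferase gene (chr7:124131346-124131626), was 536419 bp away, with fold 7.3 and 5.31. A site 1020245 bp from Slit2, a Robo ligand gene, was 524900 bp from acetylation. No SOX6 peak in OL lay at any of these 4. At the threshold itself, 3 sites were 1 bp from an H3K27ac peak and so just inside the set: one 143418 bp from Cand1 (fold 2.99 in EpiSC5), one in Csrnp3 (4.5) and one in Tmem8b (3.37). Just outside it, sites 26639 bp from Pi15 (fold 6.11) and in Pds5b (7.23) overlapped an H3K27ac peak by 1 bp, and one 3140 bp from Crtap (5.06) by 3 bp, each in 1 list.

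Few of the sites were at gene starts. Of 1883 sites on chromosomes with start annotations, 21 (1.12%) were within 1 kb of a protein-coding start, against 1282 of 5985 (21.4%) in all 4 lists. Within 10 kb it was 10.2%, against 35.8%, and the median distance was 80142 bp, against 26301 bp. Active starts carry H3K27ac, which the rule excludes, so closeness to a start is not independent of the rule. In a gene body of any type lay 56.2% of summits, against 68.8%, and in a protein-coding body 46.8% (916 sites), against 60.4%. The share lying over 100 kb from a protein-coding body was 20.3% (398 sites), against 7.22%. SOX6 neighbours were sparser too: 51.6% had another EpiSC5 OPC SOX6 summit within 50 kb, against 71.4%, and the median gap was 47397 bp, against 22094 bp.

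Even so, 13 chains of at least 3 sites with neighbours under 50 kb apart held 43 of the sites. The largest, 5 sites over chr2:157861802-157975438, ran from the spliceosome-associated gene Ctnnbl1 into Vstm2l, with fold 3.71 to 5.04 in EpiSC5 and a SOX6 peak in OL at 1 of them. A chain of 4 lay 4089 bp from Wdr61 (chr9:54738513-54788088, fold 3.11 to 5.84) and another of 4 ran into Disp1, which is needed for release of hedgehog ligands (chr1:183043187-183140861, fold 3.69 to 7.02). The tightest was at Egr1, an immediate early transcription factor gene, where 3 sites stood within 2766 bp (chr18:34862665-34865430) at a fold of 2.66 to 3.11. Chains of 3 were also found in Magi2, Tenm3, Marchf3 and Ubash3b. Outside gene bodies they lay 8795 bp from Rasl11b, 115077 bp from Rnf144a and 750562 bp from Myc. Another, 11826 bp from Eapp, had a SOX6 peak in OL at 2 of its 3 sites.

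SOX6 peaks in OL were rare at the sites. A SOX6 peak of EpiSC5 OL overlapped 36 of the 1959 (1.84%, exact binomial interval 1.29 to 2.54), against 1131 of 6221 sites in all 4 lists (18.2%, 17.2 to 19.2). The intervals cover counting error only, and with 1 SOX6 library in OL the difference between states has no replicate. Sites in 1 H3K27ac list were at 1.72%, in 2 at 5.16% and in 3 at 6.1%. The share also differed with which lists covered the site: 111 of 696 sites (15.9%) acetylated in both OL lists and neither OPC list had a SOX6 peak in OL, against 14 of 1672 (0.837%) acetylated in both OPC lists and neither OL list.

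**Figure D4:**
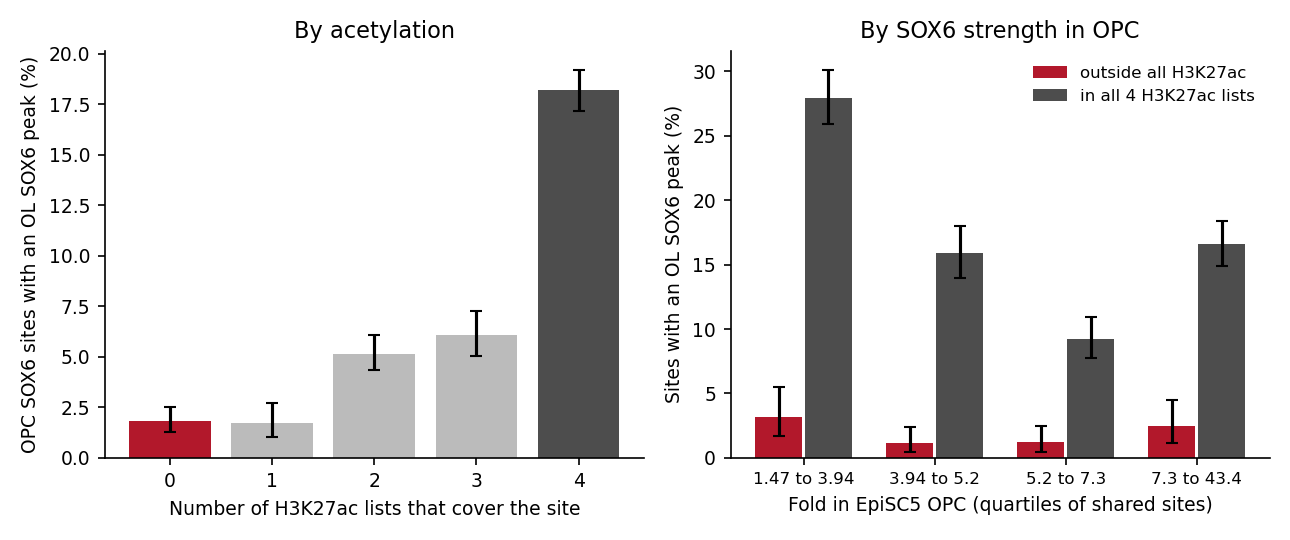
Percent of shared OPC SOX6 sites with a SOX6 peak in EpiSC5 OL (y axis), with exact 95% binomial intervals as bars, by the number of H3K27ac lists that cover the site (left, 0 to 4) and by quartile of fold enrichment in EpiSC5 OPC (right). Sites outside all H3K27ac (red) stand at 1.17% to 3.18% and sites in all 4 lists (dark grey) at 9.23% to 27.9% in the quartiles.

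The difference was present at every strength and width of OPC peak. By quartile of fold in EpiSC5, lowest to highest, a SOX6 peak in OL lay at 3.18%, 1.17%, 1.21% and 2.46% of sites outside acetylation, against 27.9%, 15.9%, 9.23% and 16.6% of those in all 4 lists. By quartile of width it was 1.18%, 1.25%, 2.58% and 6.3%, against 23.2%, 19.2%, 15.1% and 17.1%. With the sites over 10 kb from a protein-coding start alone it was 28 of 1690 (1.66%), against 11.2%. With those of -log10 q above the median of shared sites it was 21 of 752 (2.79%), against 15.1% (528 of 3489). By distance to H3K27ac it was 2.48% under 1 kb, 2.06% at 1 to 10 kb, 1.77% at 10 to 100 kb and 0.667% (1 of 150) above that. The depth of the OL library, whose list is shorter than that of EpiSC5 OPC, is unknown, so a site without a listed peak in OL is not shown to lack SOX6.

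Among the 36 sites with a SOX6 peak in OL, the highest fold in OL was in Cacng4, an AMPA receptor auxiliary subunit gene with high expression in OPCs. There chr11:107784144-107785453 had fold 23.2 in EpiSC5 OL, against 12.3 in EpiSC5 and 12.8 in 129O1 OPCs. At 1310 bp this peak was also far wider than the median of 272 bp, and it lay 4039 bp from H3K27ac. A site 6570 bp from Qk (chr17:10199780-10200012), the gene of an RNA-binding protein required for myelination, had fold 10.7 in OL, against 3.74 and 3.84 in OPCs, in that order of lines, and lay 358 bp from an H3K27ac peak of EpiSC5 OL. In Rock1, a kinase gene of the actin cytoskeleton, the fold was 10.2 in OL, against 7.14 and 6.8 in OPCs. In Npas4, a transcription factor gene induced by neuronal activity, it was 10.1 in OL, against 4.9 and 5.1, and the summit was 799 bp from the start. A site 20133 bp from Kcnk9, a leak potassium channel gene, had 9.62 in OL, against 5.96 and 4.06. Near Sec14l1, 2 sites with summits 620 bp apart shared 1 OL peak of fold 9.49, against 2.18 and 2.04 in EpiSC5 OPCs, so the 36 sites lie under 35 OL peaks. A site 14605 bp from Fem1a had 9.01 in OL, against 6.18 and 10.7. In Celf4, an RNA-binding protein gene, it was 8.94, against 6.63 and 8.96, and in Acvr1b, an activin receptor gene, 8.76, against 3.47 and 3.52. Fold enrichment is set within each library, so the values of OL and OPC stand side by side without a test.

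The genes that hold the sites were long. A protein-coding body held at least 1 site in 761 of 20661 genes (3.68%), with 1 site in 637 of them, 2 in 96, 3 in 20, 4 in 6 and 5 in 2. Their median length was 155 kb, against 67.3 kb for genes holding a site in all 4 lists and 17.5 kb for all genes, and a longer gene has more room for a site. Among those with an annotated start, 350 of 584 (59.9%) had an H3K27ac peak at the start in both OPC lists, against 82.6% of genes holding a site in all 4 lists and 49.4% of all. No list acetylated the start in 31.3%, against 11.7% and 45.2%. Among genes over 100 kb, 62.1% of those with a site had a start acetylated in both OPC lists, against 63.3% of all genes of that length.

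Magi2, a scaffold protein gene of synapses, held 5 sites with fold 4.5 to 6.34 in EpiSC5, of which 3 stood between 20038550 and 20068884 on chromosome 5. Nrxn3, a presynaptic adhesion gene of the neurexin family, held 5 as well. At its strongest (chr12:89668884-89669226) fold was 14.8 in EpiSC5 and 17.7 in 129O1, and at its weakest 3.43 and 4.4. Rab3c, a vesicle GTPase gene, held 4, with fold 11.2 in EpiSC5 and 10.5 in 129O1 at the highest, and its start lay in no H3K27ac list. Camk1d, a calcium- and calmodulin-dependent kinase gene, held 4 with fold 5.35 to 7.67 in EpiSC5. Robo1, the Slit receptor gene, held 4 with 4.17 to 6.2. Ctnna2, the neural alpha-catenin gene, held 4 with 3.8 to 8.1, of which 1 was 264976 bp from acetylation. Auts2, a neurodevelopmental regulator gene, held 4 with 4.18 to 10.4, and Tenm3 held 4 with 4.54 to 19.4. Pebp4, Adk (adenosine kinase), Slc39a11 (a zinc transporter) and Bnc2 (a zinc finger protein) held 3 each. The strongest of Adk reached 16 in EpiSC5 and 17.7 in 129O1, and that of Slc39a11 reached 11.8 and 16.1. These 12 were the first of 28 genes with 3 or more sites, ties being broken by sites per 100 kb. None of the sites in these 12 genes had a SOX6 peak in OL.

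A larger share of axon guidance and adhesion genes than of myelin and newly formed oligodendrocyte genes held a site, and they are also longer (median 231 and 740 kb, against 17.7 and 82.8 kb). Of 35 axon guidance genes, 15 held 21 sites (Robo1 with 4, Efna5, Sema6d and Slit3 with 2 each among them), which is 1.65 sites per Mb of gene body, against 0.921 per Mb over all protein-coding genes. Of 49 neural cell adhesion genes, 15 held 29 sites, at 0.802 per Mb. These included Nrxn3, Tenm3, Lsamp with 3, and Dscaml1 and Nlgn1 with 2 each. Of 41 ion channel and glutamate receptor genes, 13 held 14 sites, at 0.728 per Mb, with Cacna2d1, Scn1a, Grin3a, Kcnt2, Grik1 and Grin2b among them. Per length, the 1 site in myelin genes came to 1.22 per Mb, above the adhesion genes, and newly formed oligodendrocyte genes were at 0. Above the guidance genes were the MAPK feedback list, at 4.97 per Mb with 2 sites, and the neuron list, at 1.89 with 4 sites. The astrocyte list was at 1.25 with 1 site. For sites in all 4 lists the rates were 1.89 (guidance), 2.68 (adhesion) and 1.3 (channels) per Mb, against 3.97 over all genes. No test was made of any list.

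Of 32 OPC genes, 6 held 7 sites (0.842 per Mb), while 21 held a site in all 4 lists (8.78 per Mb). The 6 were Ncald, a neuronal calcium sensor gene, with 2, and Pdgfra, the PDGF receptor of OPCs, Cacng4, Nfib, Sema5a and Sox5 with 1 each. The Nfib site lay only 4 bp from an H3K27ac peak, the Sema5a site 22 bp and 1 Ncald site 688 bp. The other sites of these genes lay 4039 bp or more away. The Pdgfra site had fold 4.23 in EpiSC5 and 4.72 in 129O1 and lay 7520 bp from acetylation, without a SOX6 peak in OL. Sox5, the SoxD partner of SOX6, held 1 site of fold 8.46 and 8.81 and 3 sites in all 4 lists, and was the only member of 18 SOX genes with a site. None of 24 genes of newly formed oligodendrocytes held one, although 16 of them held a site in all 4 lists. Of 28 myelin genes 1 held one (Anln, of the myelin septin scaffold), against 10 with a site in all 4 lists. Of 22 lineage transcription factor genes 1 did (Nfib), of 18 MAPK feedback genes 1 (Egr1 with 2), of 14 astrocyte genes 1 (Aldh1l1) and of 18 neuron genes 3 (Myt1l with 2, Elavl4 and Rbfox3). The Aldh1l1 site lay 76 bp from H3K27ac, the Egr1 sites 281 and 807 bp and the Myt1l sites 528 and 26384 bp. Those of Anln, Elavl4 and Rbfox3 lay 4869 bp or more away. None was in a cell cycle, microglia, pluripotency, Schwann cell or housekeeping gene of the lists.

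H3K27ac breadth over the genes that hold the sites was then compared between OL and OPC. The rule did not use the difference between OL and OPC. It did choose sites by the absence of peaks in the same H3K27ac lists that breadth is measured from. The calls among host genes are therefore not independent of the rule, and their shares are given as a description. Breadth is the length covered by H3K27ac within the gene and 10 kb of either end, scaled to equal total per list and tested as log2 of covered kb plus 1 with limma, with the line as a term. A call needed an adjusted p below 0.05 and changes of 1 sign in 129O1 and EpiSC5. Over all 12456 genes tested, 12.5% were called wider and 16.4% narrower in OL. Of the 623 host genes that passed the filter (138 of the 761 did not), 98 (15.7%) were wider, 171 (27.4%) were narrower and 354 were not called. The median change was -0.24 for the hosts and -0.24 for all genes tested. Long genes were called more often: among genes over 100 kb, 22% were wider and 24.2% narrower. In that length class the 445 with a site were 16.2% wider and 31% narrower, and the 1502 without one were 23.8% wider and 22.2% narrower. The class does not even out length. Counting genes not tested as well, the median was 265 kb for those with a site, against 172 kb for all genes over 100 kb. Without scaling, 90 hosts (14.4%) were wider and 111 (17.8%) narrower, against 12.6% and 9.19% of all genes, and the median of all genes was -0.13. The balance over all genes thus turned with the scaling, while narrower calls outnumbered wider ones among hosts either way. Among genes over 100 kb and without scaling, those with a site were 14.4% wider and 21.2% narrower and those without one 22.9% wider and 14% narrower. With either OPC H3K27ac list left out and no line term, limma called 0 hosts and 0 genes at all, with 200 and 181 hosts and 2768 and 2451 genes at an unadjusted p under 0.05. With EpiSC5 OL left out it called 36 hosts wider and 63 narrower. Each p-value and SE here rests on 2 lines with 1 residual degree of freedom. Limma moderates the spread of a gene towards that of the other genes (prior 5.03), so neither measures the spread between the lines alone. Whether cultures were separate beyond the 2 lines is not given.

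Of the 12 genes with sites described one by one above, 10 were tested and 3 were called. The other 16 of the 28 genes, tied at 3 sites, were all tested, and 3 were called wider and 8 narrower. Of all genes tested 12.5% were called wider and 16.4% narrower, and of genes over 100 kb 22% and 24.2%. Whether these named genes differ from that background was not tested. Lengths in kb below are as listed, before the scaling that the log2 changes include. Nrxn3 had 5.61 kb (129O1) and 11.2 kb (EpiSC5) covered in OL, against 22.4 and 16.3 kb in OPC. Its log2 change was -1.29 ± 0.28 (SE as moderated by limma, limma adjusted p = 0.0233). Camk1d had 4.63 and 2.98 kb in the OL lists, against 6.95 and 4.84 kb in the OPC lists (-0.64 ± 0.18, limma adjusted p = 0.0417). Auts2 had 26.4 and 21.5 kb in the OL lists, against 15.7 and 10.2 kb in the OPC lists (0.72 ± 0.15, limma adjusted p = 0.0216). The OL and OPC lists came closest in Camk1d (4.63 kb in 129O1 OL, against 4.84 kb in EpiSC5 OPC). As the 3 genes were picked by their calls, separate values of OL and OPC add no support to them. Nrxn3 and Camk1d lost the call without scaling and without the line term. Auts2 lost it with either OL list left out, and Camk1d with that of EpiSC5 left out and with a pseudocount of 0.25 kb. With the higher-scoring 50% of each H3K27ac list all 3 lost it, and Camk1d was then at -0.07 (limma adjusted p = 0.772), Nrxn3 at -1.05 (0.173) and Auts2 at 0.86 (0.108). Robo1 had 2.88 and 3.56 kb in the OL lists, against 4.22 and 4.25 kb in the OPC lists, and missed the threshold (-0.43 ± 0.17, limma adjusted p = 0.106), as did Slc39a11 (0.70 ± 0.21, limma adjusted p = 0.0555), which passed it with 50 kb at either end. Magi2, Ctnna2, Tenm3, Pebp4 and Adk had estimates of -0.27 to 0.53 and were not called, but Pebp4, at 0.53, was called narrower (-0.60) with 50 kb at either end. Rab3c and Bnc2 had at most 1.13 kb in every list and were not tested.

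**Figure D5:**
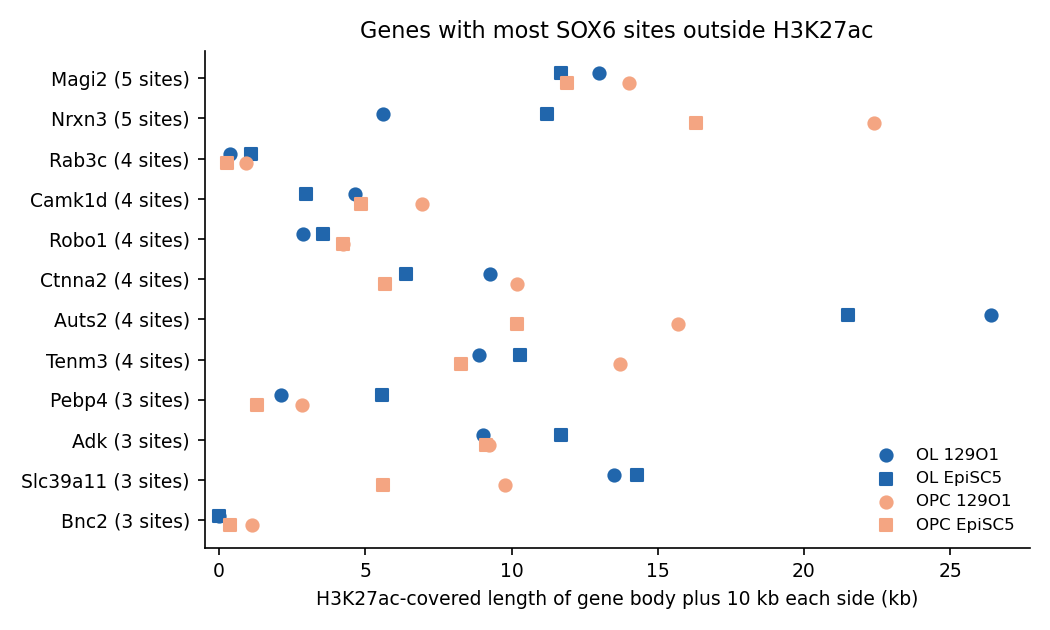
Length covered by H3K27ac within the gene and 10 kb of either end (x axis, kb as listed, without scaling) in OL (blue) and OPC (orange) of 129O1 (circles) and EpiSC5 (squares), for the 12 genes taken for their number of sites, 46 sites in all (y axis, number of sites in brackets). Nrxn3 lies to the left in OL, at 5.61 and 11.2 kb against 22.4 and 16.3 kb in OPC, and Auts2 to the right, at 26.4 and 21.5 kb against 15.7 and 10.2 kb.

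Of the 6 host genes of the OPC list, 4 were called narrower in OL and 1 wider. Over all genes tested it was 16.4% narrower and 12.5% wider, and over genes above 100 kb 24.2% and 22%. The 6 were not tested as a set. Pdgfra was at 2.55 kb (129O1) and 1.54 kb (EpiSC5) in OL, against 15.2 and 13.1 kb in OPC (-2.45 ± 0.20, limma adjusted p = 0.00247). Ncald (-0.88), Nfib (-1.04) and Sox5 (-0.69) were called narrower, with limma adjusted p of 0.0101, 0.00819 and 0.0318. Sema5a, a semaphorin gene, was called wider, with 61.4 and 64 kb in the OL lists, against 17.5 and 12.8 kb in the OPC lists (1.86 ± 0.15, limma adjusted p = 0.00247). Cacng4 was at 19 and 7.47 kb in the OL lists, against 12.7 and 9.81 kb in the OPC lists, and was not called (-0.04 ± 0.27). Of the adhesion hosts named, beside Nrxn3 and Tenm3 given above, Nlgn1 (-0.98) was narrower, Lsamp (0.79) was wider and Dscaml1 (0.06) was not called. Of the guidance hosts named, Efna5 (-0.90) and Ntn4 (-1.57) were narrower, while Sema6d, Slit3 and Epha4 were not called. Of the channel and receptor hosts, Grin3a (-1.73) and Grik1 (-0.84) were narrower, and Grin2b (0.53) and Cacna2d1 (-0.91) were not called. Scn1a and Kcnt2 did not pass the filter and were not tested. Ptprd, which held the first of the strong sites inside a gene by the worse of the 2 ranks, was at 4.33 and 1.69 kb in the OL lists, against 21.9 and 15.8 kb in the OPC lists (-2.50 ± 0.23, limma adjusted p = 0.0029). Tgfbr3 (0.56) and Rbms1 (0.22) were not called. Anln, the myelin host, was called narrower (-1.55 ± 0.19, limma adjusted p = 0.00531), as were the neuron hosts Elavl4 (-1.66) and Myt1l (-0.71), while Rbfox3, Egr1 and Aldh1l1 were not called. Of the alternatives in which they were tested, Pdgfra, Sema5a, Grin3a and Ptprd lost the call only without the filter or with an OPC list left out. No gene was called in those. A host that did not pass the filter of an alternative was not tested there. Grin3a (0.285 and 0.369 kb in OL, 3.96 and 2.57 kb in OPC) was not tested with a mean of at least 3 kb. Lsamp, Sox5, Nlgn1, Efna5, Grik1 and Myt1l also lost it without scaling, and all of these but Nlgn1 without the line term. With EpiSC5 OL left out these 6 lost it along with Ncald, Ntn4 and Elavl4, and with 129O1 OL left out Sox5, Efna5 and Grik1 did. With the higher-scoring 50% of each list Lsamp, Ncald, Nfib, Sox5, Nlgn1, Anln, Elavl4 and Myt1l lost it.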

How the data were processed

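Deposited peak lists of 7 of the 9 samples were used, with 129O1 as replicate 1 and EpiSC5 as replicate 2, and the 2 inputs were not analysed here. The submitters' processing notes name build mm10 and the tools bedtools, deepTools, Picard, Bowtie2 2.3.2 and Trim Galore 0.3.1. Which peak caller and control were used is not given in the sources used here. The deposited lists hold 1 library each and give per peak a score (10 times the −log10 q, truncated), the authors' fold enrichment (a ratio), and the authors' −log10 p-value and −log10 q-value, plus a summit for SOX6. They hold no counts, so depth is unknown. These values were used within a list only.

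Overlap meant at least 1 bp. Coordinates are 1-based, mm10. Genes, starts and promoter windows came from RefSeq tables of GRCm38.p6, with starts for 16456 of 20661 protein-coding genes on chromosomes 1 to 19. Chromosome 18 has no starts there. Shares have exact binomial (Clopper-Pearson, 95%) intervals. Breadth was tested in genes averaging 1 kb or more, with limma 3.58.1 (R 4.3.3, trend, 1 residual degree of freedom, prior 5.03) and adjustment after Benjamini-Hochberg. The line was in the model because OL and OPC of a line come from the same line, and their deviations correlated at 0.27 across genes. The planned motif search in windows at every summit, with windows beside them, was not run without a genome, and RefSeq promoter windows holding a summit took its place. The sequences printed were chosen after their values were seen, except that of Gm31135.

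The sites, gene lists and tests were chosen with earlier results of these data known. Genes and sites are named by rule: the 12 genes with most sites (ties by sites per 100 kb), the 12 strongest sites by the worse of 2 ranks, the 5 farthest from H3K27ac, the 10 of highest fold in OL, up to 6 host genes per list, 3 on each side of the threshold, and 12 chains. Some items this rule takes are not reported here. Alternatives concerned overlap, exclusion distance, list thresholds, single lists, window, filter, pseudocount, scaling and the line term. Those by start distance, q and gene length were chosen after seeing the data.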

Additional observations from a re-analysis of the deposited data

How the results depend on the processing

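In every alternative run, a lower share of the sites than of those acetylated throughout had a SOX6 peak in OL. Requiring no H3K27ac within 1 kb gave 12.8% of shared sites and a median distance of 18.7 kb. Excluding by the 2 OPC lists alone gave 3023 sites (22.1%), 5.23% with SOX6 in OL against 13% of acetylated sites, 19.9 kb, and 59.6% in gene bodies. Counting protein-coding genes alone, 46.8% of the 1959 sites were in a gene body. The higher-scoring 50% of OPC SOX6 peaks gave 724 sites (10.4%), 2.62% against 15.7%, 18 kb, 53.9% above the median fold, and ACAAT in 33.3% of windows. The higher-scoring 50% of H3K27ac peaks gave 5001 sites (36.5%), 25.3% for acetylated sites and 35.6 kb. With the summit inside the OL peak the sites were at 1.74% and the acetylated ones at 15.9%. Under the ordinary overlap the sites of higher q alone were at 2.79%. Leaving out 1 list at a time gave 2096 to 4186 sites, 15.3% to 18.8% of shared sites, 1.66% to 2.01% with SOX6 in OL against 16.1% to 18.1%, and 45.5% to 51% above the median fold. Windows of other lengths were not run.

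For breadth, a mean of at least 3 kb called 1205 genes narrower, no filter called 0 in each direction for all genes and for hosts (limma, 4815 genes and 296 hosts at an unadjusted p under 0.05), and no scaling called 1143 genes and 111 hosts narrower. With 50 kb each side 2382 genes were wider and 3662 narrower. With the higher-scoring 50% of peaks 129 genes and 11 hosts were wider and 43 genes and 9 hosts narrower. Without the replicate block by line, 1234 genes and 67 hosts were wider and 1368 genes and 122 hosts narrower. Leaving out 1 list at a time, without the block, called 0 to 1204 genes and 0 to 76 hosts wider and 0 to 2286 genes and 0 to 143 hosts narrower (595 and 36 wider, 443 and 63 narrower without EpiSC5 OL), where the lone list of a state is assumed to vary like the other state. The cause of these moves was not tested. Unknown depth limits every statement of absence.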

Other observations

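Of 3858 SOX6 peaks in EpiSC5 OL, 757 (19.6%) overlapped no H3K27ac peak of any list and 2278 (59%) lay in all 4 lists. Of the 757, 48 (6.34%) overlapped an EpiSC5 OPC SOX6 peak, against 1148 (50.4%) of the 2278 and 1491 (38.6%) of all 3858. Of the OL peaks, 35 (0.907%) overlapped one of the 1959 sites. The 570 EpiSC5 OPC SOX6 peaks outside acetylation without a 129O1 peak had a median fold of 4.36 and a median width of 228 bp, against 5.21 and 272 bp for the 1959 shared ones.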
